A study of Mus musculus with 20 samples.

Results

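Chemokines are small secreted proteins that direct the migration of leukocytes, and their receptors sit on the migrating cells. The genes described here are the chemokine ligands and receptors with Ccl, Cxcl, Ccr or Cxcr symbols that had at least 10 counts in at least 4 of 20 mouse liver RNA-seq libraries. The rule kept 30 of 55359 annotated genes, of which 21 encode ligands and 9 encode receptors. The files hold 52 symbols of this form, 36 ligands and 16 receptors, and 22 of them stayed under the minimum. All 30 passed the expression filter of the test. A gene could meet the minimum through the group in which it was high, so counts over these genes describe them and carry no test of the list.

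The libraries come from male wild-type mice (strain given as C56BL/6) killed at 35 weeks of age, in 5 groups of 4 libraries. Every mouse, in the normal-diet group too, had 50 µL of 0.5% 7,12-dimethylbenz(a)anthracene (DMBA, a carcinogen) applied to the skin of the back at postnatal day 4 to 5. Mice were weaned at 4 weeks and received either a high-fat diet (60 kcal% fat) or a normal diet (12 kcal% fat). High-fat mice were split at 20 weeks into a treadmill-exercised arm and a non-exercised arm, and tumour and non-tumour liver was sampled from each. Exercised mice trained for 5 weeks from 10 m/min and then ran at 18 m/min for 20 min per day on 5 days per week over the last 10 weeks, with a final run within 2 h of death. The groups are therefore high-fat exercised tumour, high-fat exercised non-tumour, high-fat non-exercised tumour, high-fat non-exercised non-tumour and normal-diet non-exercised liver. The labels describe the obese mice as weighing more than 45 g. No DMBA-free group and no exercised normal-diet group were analysed here, so a difference in diet or in exercise is a difference among DMBA-treated mice.

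Chemokines bind G protein-coupled receptors, which signal through Gi proteins and the cytoskeleton, and each inflammatory receptor recognises several ligands. In the liver, CCL2 acting on CCR2 brings monocytes from the blood to the injured tissue, where they can become macrophages. CXCL9, CXCL10 and CXCL11 are interferon-induced ligands of CXCR3, and CXCL9 and CXCL10 attract activated T cells and NK cells through it. CXCL1 and CXCL2 attract neutrophils through CXCR2, CXCL13 attracts B cells through CXCR5, and CXCL12, made by stromal and sinusoidal cells, acts on CXCR4. Only RNA was measured here, so whether a functional protein was made was not tested.

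Library totals ranged from 16471378 to 20271948 assigned counts, so that 1 CPM (counts scaled to library size) stood for 16.5 counts in the shallowest library. Within groups, log CPM values correlated with r between 0.934 and 0.99 and no library pair matched within counting noise. Hepatocyte markers such as Alb were abundant in every group, with a summed level of 64440 CPM or more in each library. Both pieces of non-exercised high-fat mouse 3 stood apart: the summed level of 20 T and NK cell markers was 35.1 CPM in its tumour library and 35.7 CPM in its non-tumour library, against 6.67 to 15.7 CPM in the other 6 libraries of that arm. Single-gene results that rest on this mouse are given with and without it. Because these are bulk tissue samples, a change in the number of cells of a type and a change in RNA per cell cannot be told apart.

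Levels differed widely between the ligands. Per transcript length, the ligands of highest mean level were Cxcl12 at 80.4 TPM (counts scaled by exon length and by library), Ccl9 at 52.9 TPM, Cxcl1 at 41.6 TPM, Cxcl9 at 19.6 TPM, Cxcl13 at 16.6 TPM and Ccl6 at 16.1 TPM over all 20 libraries. The receptors lay lower, with Cxcr4 at 4.20 TPM, Ccr2 at 2.81 TPM and Ccr7 at 1.12 TPM among them. The order of the ligands depended on the group. Cxcl12 led in non-exercised non-tumour liver with 107 ± 5.99 TPM and in normal-diet liver with 99.9 ± 18.3 TPM (SD, n = 4 each). In tumours of exercised mice Ccl9 averaged 82.9 ± 21.4 TPM, Cxcl1 69.3 ± 21.3 TPM and Cxcl12 44.6 ± 26 TPM, and in tumours of non-exercised mice Cxcl1 averaged 87.9 ± 28.4 TPM, Ccl9 81.0 ± 6.51 TPM and Cxcl12 52.0 ± 28.7 TPM. Within each kind of tumour the order of Ccl9 and Cxcl1 is not separated by their SDs. Among receptors in normal-diet liver, Cxcr4 at 1.64 ± 0.225 TPM lay above Ccr7 at 0.605 ± 0.112 TPM and Ccr2 at 0.498 ± 0.119 TPM, and the last pair differed by less than their spread.

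**Figure D1:**
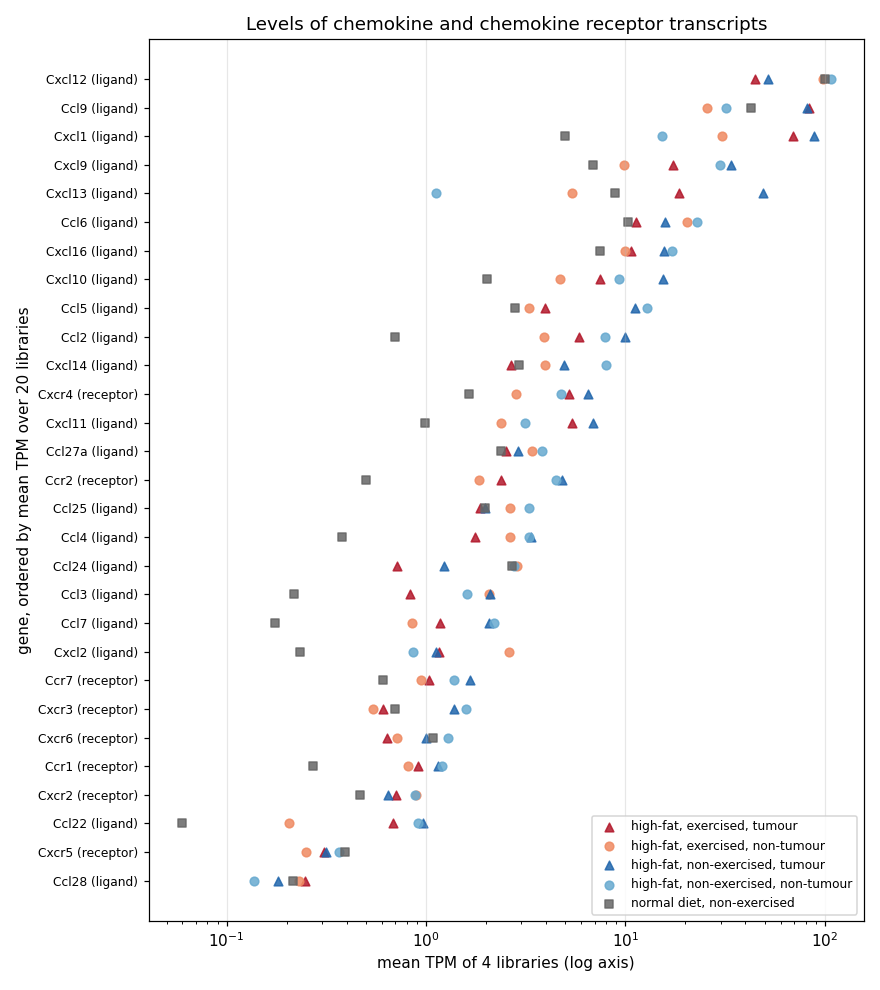
Mean level of the genes described in the 5 groups (n = 4 libraries each), ordered by mean TPM, with ligands and receptors marked. Cxcl12, Ccl9 and Cxcl1 head the ligands, and no receptor averages more than 4.20 TPM over all libraries.

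Many of the genes lie in tandem clusters, positions being those of GRCm39 in the deposited files. Chromosome 11 holds 9 of the 30, chromosome 5 holds 7 and chromosome 9 holds 5 receptors. Cxcl9, Cxcl10 and Cxcl11 are neighbours on chromosome 5 between 92469206 and 92513344. Ccl2 and Ccl7 lie next to each other on chromosome 11 between 81926397 and 81938351, and Ccr1 and Ccr2 lie on chromosome 9 between 123762161 and 123913594. Counting was by exons and on the strand of the gene, and no exon of a member overlapped an exon of another gene on its strand. Ccl27a has near-identical copies in the mouse genome, so its value is uncertain.

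Promoter sequences of 3 ligands that the comparisons below turn on are shown from 250 bases before to 50 bases after the transcription start, from RefSeq on GRCm38.p6, a different build from the one used in counting. Cxcl10 stands for the interferon-induced ligands that differed with diet, and Ccl9 and Cxcl1 are the abundant ligands that differed between tumour and non-tumour liver. Capitals mark matches on either strand to the interferon-stimulated response element (GAAA, any pair of bases, GAAA) or to the NF-kappaB consensus, the first match in Cxcl10 being the response element and all others NF-kappaB. The Cxcl10 window is chr5:92348840-92349139 on the minus strand, the Ccl9 window is chr11:83578587-83578886 on the minus strand and the Cxcl1 window is chr5:90890995-90891294 on the plus strand, each written 5′ to 3′ along the gene.
Cxcl10: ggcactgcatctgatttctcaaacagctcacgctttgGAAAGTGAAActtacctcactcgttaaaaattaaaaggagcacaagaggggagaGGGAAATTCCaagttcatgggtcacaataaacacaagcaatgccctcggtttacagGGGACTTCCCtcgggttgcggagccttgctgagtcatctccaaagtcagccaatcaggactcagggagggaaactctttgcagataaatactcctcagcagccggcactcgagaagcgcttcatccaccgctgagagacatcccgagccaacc
Ccl9: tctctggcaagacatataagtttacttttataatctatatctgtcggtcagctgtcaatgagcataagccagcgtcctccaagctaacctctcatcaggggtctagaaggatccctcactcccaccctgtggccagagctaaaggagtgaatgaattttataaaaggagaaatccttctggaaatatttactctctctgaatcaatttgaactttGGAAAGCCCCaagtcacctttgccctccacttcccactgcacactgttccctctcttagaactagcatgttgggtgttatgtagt
Cxcl1: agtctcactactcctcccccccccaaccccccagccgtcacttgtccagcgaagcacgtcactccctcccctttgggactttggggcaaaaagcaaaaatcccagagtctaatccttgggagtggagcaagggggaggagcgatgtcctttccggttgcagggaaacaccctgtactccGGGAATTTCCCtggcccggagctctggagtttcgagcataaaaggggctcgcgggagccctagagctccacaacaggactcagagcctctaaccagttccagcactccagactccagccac
In Cxcl10 the response element began 213 bases upstream of the start and the NF-kappaB matches 159 and 103 bases upstream. In Ccl9 the NF-kappaB match began 35 bases upstream, and in Cxcl1 a pair of overlapping matches began 71 and 70 bases upstream. The response element was in 3.44% and the NF-kappaB consensus in 4.51% of 32851 mouse promoters of the same length. Promoters were matched for 20 of the 30 genes. Besides those shown, Cxcl14 held the response element, and Cxcl2 and Ccl27a held the NF-kappaB consensus. The window of Cxcl9 held neither. Ccl2, Ccl4, Ccl5, Ccl7, Ccl24, Ccr7, Cxcl11, Cxcl16 and Cxcr5 were among those with no entry. A match of letters is a description of the window and does not show that a factor binds there.

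The first comparison asks how the high-fat diet goes with chemokine expression. It sets non-tumour liver of non-exercised high-fat mice against liver of normal-diet mice. From the shared mouse numbers these high-fat livers are read as tumour-bearing, while no tumour piece of a normal-diet mouse is among the libraries. A difference with diet therefore cannot be told apart from a difference in carrying a liver tumour. Ccl2 and Ccl7 rose together with their receptor Ccr2. Ccl4 and Ccl5 rose as well, in calls that single libraries decide, while Ccl3, Ccl6 and Ccl9 did not pass. The CXCR3 ligands Cxcl9, Cxcl10 and Cxcl11 rose too, while Cxcr3 itself did not pass the test. Of the 30 genes, 12 rose and 1 fell at an adjusted p under 0.05 in edgeR's quasi-likelihood test, where 25.9% of all 14428 genes tested passed, 14% upward and 11.9% downward. Ligands accounted for 9 of the increases and the single decrease, and receptors for 3 increases. The median log2 fold change was 1.19 over the 30 genes and 0.01 over all genes tested.

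Ccl2, which recruits monocytes, stood at 2.24, 1.66, 4.71 and 3.68 CPM in the 4 high-fat libraries, against 0.350, 0.640, 0.229 and 0.127 CPM in the 4 normal-diet libraries. Every high-fat library lay above every normal-diet library, and the log2 fold change was 3.16 ± 0.61 (SE) with an edgeR adjusted p of 0.00155. Ccr2, the receptor of Ccl2 and Ccl7 on inflammatory monocytes, had 9.48, 4.23, 17.3 and 10.7 CPM in high-fat livers, against 1.22, 1.40, 1.83 and 1.21 CPM in normal-diet livers. Its groups did not overlap either, mouse 3 was the highest of the high-fat livers, and its log2 fold change was 2.87 ± 0.45 (adjusted p = 0.000412). Ccl7, the second CCR2 ligand, was rare, with 0.505, 0.214, 0.993 and 0.678 CPM in high-fat livers and 0.0583, 0.0582, 0.0573 and 0.0636 CPM in normal-diet livers. Ccl7 counts summed to 47 in high-fat livers and 4 in normal-diet livers, a ratio of 10.3 after scaling to the TMM-adjusted library sizes behind CPM. The exact 95% interval of 3.75 to 39.2 covers counting error only. The fitted log2 fold change of Ccl7 was 3.20 ± 0.76 (adjusted p = 0.00572).

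RNA of all 3 interferon-induced ligands of CXCR3 rose, and their proteins were not measured. Cxcl9 had 36.1, 13.6, 51.2 and 23.4 CPM in high-fat livers, against 6.77, 8.37, 10.9 and 8.71 CPM in normal-diet livers, a log2 difference of 1.84 ± 0.47 (adjusted p = 0.00903). The high-fat libraries spread over a wide range with mouse 3 at the top, yet the lowest of them stood above the highest normal-diet library. Cxcl10 had 7.68, 5.99, 8.34 and 7.02 CPM in high-fat livers and 2.62, 2.21, 0.974 and 1.97 CPM in normal-diet livers, a log2 difference of 1.90 ± 0.43 (adjusted p = 0.00414). Cxcl11 had 4.88, 4.82, 3.23 and 3.92 CPM in high-fat livers and 1.57, 1.74, 1.32 and 1.72 CPM in normal-diet livers, a log2 difference of 1.40 ± 0.33 (adjusted p = 0.00564). For both genes the groups did not overlap and the high-fat libraries lay close together, mouse 3 being the lowest of them for Cxcl11. Their receptor Cxcr3, found on activated T cells, differed by a log2 value of 0.88 ± 0.46 that did not pass the test (adjusted p = 0.168).

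The CC ligands Ccl4 and Ccl5, which attract T cells and macrophages, were also higher. Ccl5, made by T cells and NK cells among others, averaged 4.21 ± 3.08 CPM in high-fat livers and 1.13 ± 0.341 CPM in normal-diet livers (SD, n = 4 each), with a log2 fold change of 1.90 ± 0.59 (adjusted p = 0.0249). High-fat mouse 3 had 8.74 CPM of Ccl5, against 1.82 to 3.19 CPM in the other 3 high-fat livers. Without that library the Ccl5 log2 fold change was 1.25 and did not pass (adjusted p = 0.127). Without both pieces of that mouse it was 1.26, with an adjusted p that was just under the threshold and rounds to 0.05. Without normal-diet library 1, 3 or 4 the adjusted p of Ccl5 was 0.0601, 0.0716 or 0.0565. Ccl4, a macrophage and T cell product, had 58 counts over the high-fat livers and 7 over the normal-diet livers, a ratio of 7.23 after scaling (exact 95% interval 3.30 to 18.8, counting error only), and its log2 fold change of 2.76 ± 0.97 (adjusted p = 0.0435) likewise did not pass without that library (adjusted p = 0.118). It also did not pass without high-fat library 1 or 4 (adjusted p = 0.0619 and 0.0853) or without normal-diet library 1, 3 or 4 (adjusted p = 0.108, 0.109 and 0.0810), and without normal-diet library 2 it was 3.98 (adjusted p = 0.0294). Its relative Ccl3 differed by 2.41 ± 1.17 and did not pass (adjusted p = 0.136).

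Ccl22, a ligand of CCR4 made by dendritic cells and macrophages, had 0.673, 0.161, 1.39 and 0.678 CPM in high-fat livers, against 0.0583, 0.0582, 0.115 and 0 CPM in normal-diet livers. The groups were apart in every library, with 57 counts in high-fat livers and 4 in normal-diet livers, a ratio of 12.4 after scaling (exact 95% interval 4.60 to 47.2, counting error only), and the fitted log2 fold change was 3.48 ± 0.80 (adjusted p = 0.00446). Ccr4 itself was under the minimum, with at most 5 counts in a library. Cxcl16, the membrane-bound ligand of CXCR6, averaged 17.7 ± 6.60 CPM in high-fat livers and 9.49 ± 1.04 CPM in normal-diet livers, with overlapping libraries and a log2 fold change of 0.90 ± 0.32 (adjusted p = 0.0444). Its call did not hold without high-fat library 1, 3 or 4 (adjusted p = 0.0614, 0.145 and 0.111) or without any 1 of the 4 normal-diet libraries (adjusted p from 0.0652 to 0.106). Its receptor Cxcr6, known from liver T cells and NKT cells, differed by -0.04 ± 0.48 (adjusted p = 0.960).

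**Figure D2:**
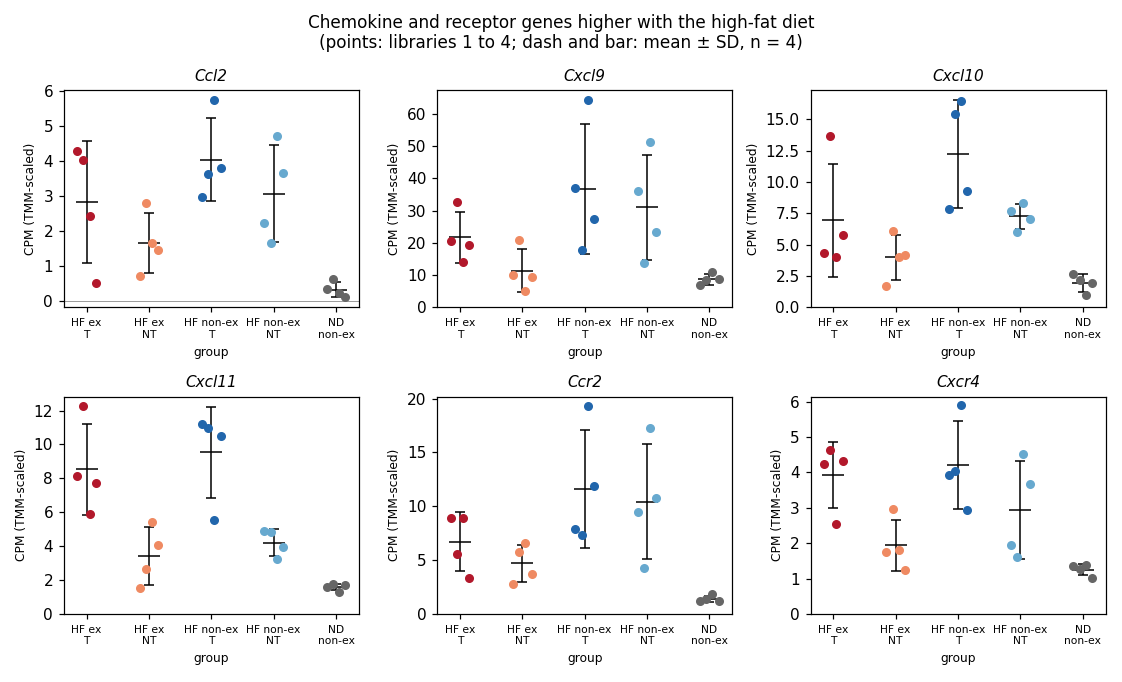
CPM of Ccl2, Cxcl9, Cxcl10, Cxcl11, Ccr2 and Cxcr4 in each library, with mean and SD (n = 4), for the 5 groups. T is tumour, NT non-tumour, ex exercised, HF high-fat and ND normal diet. All non-exercised non-tumour high-fat libraries lie above all normal-diet libraries for the 6 genes.

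Cxcr4, the CXCL12 receptor carried by most leukocytes, had 1.96, 1.61, 4.52 and 3.68 CPM in high-fat livers, against 1.34, 1.28, 1.38 and 1.02 CPM in normal-diet livers. The groups did not overlap, and the log2 fold change of 1.23 ± 0.34 (adjusted p = 0.0130) missed the threshold without high-fat library 3 (adjusted p = 0.0581) and passed without both pieces of that mouse (adjusted p = 0.0462). Its ligand Cxcl12 had 306, 316, 314 and 292 CPM in high-fat livers and 299, 418, 351 and 307 CPM in normal-diet livers. Those ranges overlapped, and the difference of -0.16 ± 0.34 did not pass (adjusted p = 0.749).

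Cxcl13, the B cell attractant, was the single member that fell with the high-fat diet, with 0.280, 0.535, 0.695 and 0.290 CPM in high-fat livers and 1.92, 11, 2.01 and 2.10 CPM in normal-diet livers. The groups did not overlap and the log2 fold change was -3.22 ± 1.08 (adjusted p = 0.0364). Normal-diet library 2 lay far above the other 3, and without it the log2 fold change was -2.15 and did not pass (adjusted p = 0.170). Without any 1 of the 4 high-fat libraries the adjusted p was 0.0643 to 0.0912. The B and plasma cell markers gave 2 decreases among 11 tested, Ms4a1 and Xbp1, beside 11.9% of all genes lower. Their median log2 fold change was -0.70, and the part of these cells in the Cxcl13 result was not tested.

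Other genes did not pass the diet test, among them the abundant Ccl9, Cxcl1 and Ccl6. Ccr7 and Ccr1, also given here, were measured with few reads, at 6 to 38 and 3 to 48 counts in a library. Ccl9, a macrophage product that attracts myeloid cells through CCR1, had 32.2, 27.5, 36.9 and 38.6 CPM in high-fat livers and 68.8, 46.1, 47.9 and 57.9 CPM in normal-diet livers, without overlap but at adjusted p = 0.0772 for a log2 difference of -0.71 ± 0.29. Cxcl1 had 9.20, 9.10, 11.6 and 9.78 CPM in high-fat livers and 1.57, 10.0, 1.60 and 2.35 CPM in normal-diet livers. The high-fat values clustered tightly and 3 of the 4 normal-diet values were far lower, but normal-diet library 2 lay inside the high-fat range, and the difference of 1.35 ± 0.64 did not pass (adjusted p = 0.128). Ccl6, a macrophage and neutrophil product close to Ccl9, had 13.1, 9.26, 20.4 and 13.8 CPM in high-fat livers and 8.81, 11.7, 4.70 and 6.23 CPM in normal-diet livers, and its difference of 0.85 ± 0.40 did not pass (adjusted p = 0.126). Ccr7, which guides dendritic cells and naive T cells to lymph nodes, had 0.673, 0.749, 1.59 and 0.774 CPM in high-fat livers and 0.525, 0.407, 0.459 and 0.636 CPM in normal-diet livers, again without overlap but at adjusted p = 0.212 for 0.90 ± 0.52. Ccr1, a receptor of Ccl9 and other CC ligands on monocytes and neutrophils, differed by 1.82 ± 0.69 (adjusted p = 0.0611).

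Among other genes of chemokine biology, taken from lists and not from how they moved, those called with the high-fat diet all rose. Of all genes tested 25.9% were called, 14% higher and 11.9% lower. Counting either direction, the share called was near 25.9% for chemokine-system genes with other symbols and for proteases, and above it for the other lists. Of 13 tested chemokine-system genes with other symbols, 4 rose and none fell: the fractalkine receptor Cx3cr1 by 2.90 ± 0.56 (adjusted p = 0.00166), the scavenging receptor Ackr1 by 1.80 ± 0.46 (adjusted p = 0.00879), the platelet chemokine Pf4 by 1.69 ± 0.49 (adjusted p = 0.0170) and Cd74, which binds MIF, by 1.35 ± 0.41 (adjusted p = 0.0225). Of 21 genes for signalling downstream of the receptors, 11 rose and none fell, among them the RGS protein Rgs2 by 1.46 ± 0.29 (adjusted p = 0.00180), the Gi subunit Gnai2 by 0.39 ± 0.09 (adjusted p = 0.00641), the receptor kinase Grk3 by 1.54 ± 0.37 (adjusted p = 0.00673) and Elmo1, which works with DOCK proteins to activate Rac, by 1.32 ± 0.33 (adjusted p = 0.00756). Of 19 interferon response genes, 16 rose and none fell, and their median log2 fold change was 1.19. Tap1, which moves peptides to MHC class I, rose by 1.11 ± 0.13 (adjusted p = 3.739e-05), and the immunoproteasome subunit Psmb9 rose by 1.36 ± 0.21 (adjusted p = 0.000360). Of 14 NF-kappaB and inflammatory cytokine genes, 8 rose and none fell with a median of 0.90, led by the adhesion molecule Icam1 at 1.31 ± 0.22 (adjusted p = 0.000580) and the NF-kappaB subunit Relb at 1.22 ± 0.23 (adjusted p = 0.00120). Of 8 proteases that can trim chemokines, 2 rose and none fell, namely Mmp12, which is also in the macrophage list, by 4.31 ± 0.73 (adjusted p = 0.000772) and Mmp14 by 0.58 ± 0.19 (adjusted p = 0.0320).

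Markers of some leukocytes moved in the same comparison, where 25.9% of all genes tested were called, 14% higher and 11.9% lower. The list for macrophages that derive from monocytes or store lipid had 10 increases and no decrease among 14 markers, with a median log2 fold change of 2.24 and a summed level of 137.8 to 379 CPM in high-fat livers, against 106 to 143 CPM in normal-diet livers. Of 13 Kupffer cell markers, 7 rose and none fell, and the summed level was 570.3 to 748 CPM in high-fat livers, against 317 to 462 CPM in normal-diet livers. Of 11 dendritic cell markers 5 rose, with a summed level of 98.1 to 346 CPM in high-fat livers, against 64.7 to 111 CPM in normal-diet livers. Of 12 T and NK cell markers none passed in edgeR, with a median of 1.02 and a summed level of 8.19 to 35.7 CPM in high-fat livers, against 11.1 to 12.8 CPM in normal-diet livers. Of 9 neutrophil markers 1 rose, Lcn2, which hepatocytes also make, and the neutrophil-specific genes Ly6g and Camp were at 0 in the normal-diet libraries. Stellate cell and fibroblast markers gave 6 increases of 12, endothelial markers 1 increase and 3 decreases of 12, hepatocyte markers 4 decreases of 11, and none of 9 cholangiocyte markers passed in edgeR. The part of these cell types in the chemokine differences was not tested.

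The second comparison sets tumours against non-tumour liver, within each exercise arm. The tumour question used the same non-exercised non-tumour libraries as the diet comparison, so results of the 2 comparisons are not independent. In both arms Ccl9 and Cxcl11 rose and Cxcl12 fell in tumours. Of the 30 genes, 6 passed in the non-exercised arm, where 35.8% of all genes tested did; all were ligands, 4 higher and 2 lower, beside 18.0% of all genes higher and 17.8% lower. In the exercised arm 6 also passed, where 34.6% of all genes did; 4 were higher, of which 1 was a receptor, and 2 lower, beside 18.6% of all genes higher and 16% lower. The members' shares were below those of all genes, upward and downward, in both arms. The median log2 fold change over the 30 genes was 0.05 in non-exercised and 0.29 in exercised mice, beside -0.01 and 0.01 over all genes tested.

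Ccl9 had 112, 86.3, 74.0 and 90.4 CPM in tumours of non-exercised mice, against 32.2, 27.5, 36.9 and 38.6 CPM in their non-tumour livers. Exercised mice had 141, 128, 62.1 and 94.4 CPM in tumours and 27.4, 52.1, 18.2 and 21.2 CPM in non-tumour livers. In each arm every tumour lay above every non-tumour library, and the log2 fold changes were 1.42 ± 0.29 (adjusted p = 0.00132) in non-exercised and 1.84 ± 0.29 (adjusted p = 0.000323) in exercised mice. Normal-diet livers, at 46.1 to 68.8 CPM, lay between the tumours and the non-tumour livers of non-exercised mice.

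Cxcl11 had 11.2, 11, 5.53 and 10.5 CPM in tumours of non-exercised mice and 4.88, 4.82, 3.23 and 3.92 CPM in their non-tumour livers. Exercised mice had 8.17, 12.3, 5.91 and 7.74 CPM in tumours and 1.52, 2.66, 5.45 and 4.06 CPM in non-tumour livers. The groups did not overlap in either arm, and the log2 fold changes were 1.18 ± 0.31 (adjusted p = 0.00619) in non-exercised and 1.31 ± 0.31 (adjusted p = 0.00395) in exercised mice. The other CXCR3 ligands did not pass in either arm. Cxcl10 differed by 0.75 ± 0.39 (adjusted p = 0.136) in non-exercised and 0.78 ± 0.40 (adjusted p = 0.139) in exercised mice. Cxcl9 differed by 0.94 ± 0.46 (adjusted p = 0.122) in exercised mice, and there it passed once each mouse was compared with itself, at 1.04 ± 0.12 in edgeR (adjusted p = 0.00231) but not by limma-voom, which took mouse as random (adjusted p = 0.0548). Unpaired, Cxcl9 differed by 1.40 without exercised non-tumour library 2 and passed (adjusted p = 0.0301).

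Cxcl12 was lower in tumours. It had 71.9, 109.7, 238 and 183 CPM in tumours of non-exercised mice, against 306, 316, 314 and 292 CPM in their non-tumour livers, a log2 fold change of -1.03 ± 0.34 (adjusted p = 0.0254). In exercised mice it had 68.5, 109, 239.7 and 163 CPM in tumours and 230.2, 259, 367 and 365 CPM in non-tumour livers, a log2 fold change of -1.07 ± 0.34 (adjusted p = 0.0217). The tumours were spread more widely than the non-tumour livers in the non-exercised arm, the groups were apart there, and in the exercised arm tumour 3 overlapped the lowest non-tumour library. These calls did not hold when single libraries were left out. In non-exercised mice the adjusted p was 0.0915 without tumour 1, 0.0839 without tumour 2, and 0.0514 and 0.0553 without non-tumour library 1 or 2. In exercised mice it was 0.0669 without tumour 1, 0.0662 without tumour 2, and 0.0541 and 0.0575 without non-tumour library 3 or 4. Cxcr4, its receptor, had 4.23, 4.63, 2.55 and 4.32 CPM in exercised tumours and 1.76, 2.95, 1.82 and 1.25 CPM in exercised non-tumour livers, a log2 fold change of 1.01 ± 0.32 (adjusted p = 0.0220). In non-exercised mice it had 3.93, 4.05, 5.90 and 2.95 CPM in tumours and 1.96, 1.61, 4.52 and 3.68 CPM in non-tumour livers, with overlap and a difference of 0.51 ± 0.31 (adjusted p = 0.212). The Cxcr4 libraries overlapped in both arms, and the exercised call was lost without tumour 1 or 2 (adjusted p = 0.0505 and 0.0592) or without non-tumour library 1, 3 or 4 (adjusted p = 0.0562, 0.0550 and 0.0738).

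Cxcl1, the neutrophil attractant, had 83.5, 68.1, 29.2 and 63.8 CPM in tumours of non-exercised mice, against 9.20, 9.10, 11.6 and 9.78 CPM in their non-tumour livers. In exercised mice it had 68.2, 54.5, 28.4 and 66.7 CPM in tumours and 8.39, 23.1, 7.11 and 48.2 CPM in non-tumour livers. The non-exercised groups were far apart, with a log2 fold change of 2.62 ± 0.59 (adjusted p = 0.00288), while exercised non-tumour libraries 2 and 4 were high and the difference of 1.32 ± 0.56 did not pass (adjusted p = 0.0778). Without exercised non-tumour library 4 the difference was 2.06 and passed (adjusted p = 0.0140). With each mouse compared with itself, the exercised difference was 1.63 ± 0.44 and passed (adjusted p = 0.0269). Cxcr2, its receptor, and the second neutrophil ligand Cxcl2 were called in neither arm.

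Cxcl13 varied widely between tumours. It had 26, 41.4, 2.51 and 12.6 CPM in tumours of non-exercised mice, against 0.280, 0.535, 0.695 and 0.290 CPM in their non-tumour livers, without overlap, and the log2 fold change was 5.49 ± 1.07 (adjusted p = 0.00104). In exercised mice it had 23.6, 9.59, 1.5 and 3.32 CPM in tumours and 2.92, 0.591, 2.07 and 4.12 CPM in non-tumour livers. Those ranges overlapped and the difference of 1.97 ± 0.88 did not pass (adjusted p = 0.0914). The difference between the arms, tested as the interaction of exercise and tumour, was -3.52 ± 1.37 with an adjusted p of 1 and an unadjusted p of 0.0202, so a difference between arms was not shown. Its receptor Cxcr5, a B cell gene with at most 15 counts in a library, was called in neither arm.

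**Figure D3:**
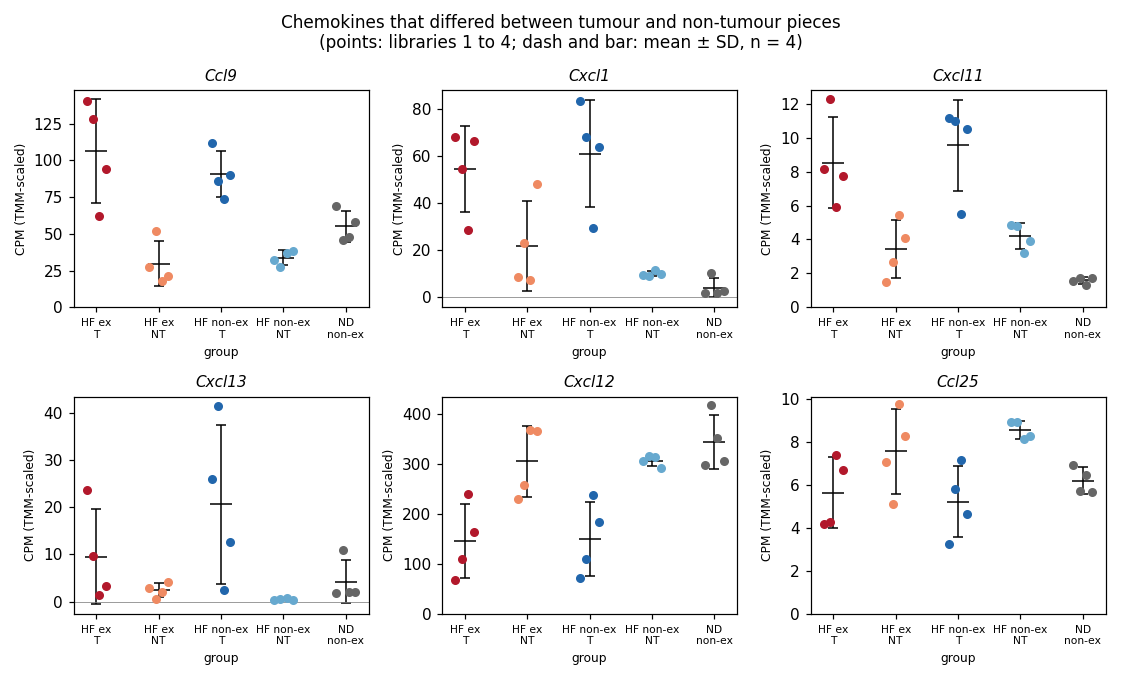
CPM of genes that differed between tumour and non-tumour liver in each library, with mean and SD (n = 4), for the 5 groups. Ccl9 and Cxcl11 are higher in all tumours than in all non-tumour libraries of the same arm, and Cxcl12 is lower in most.

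Other ligands passed in 1 arm each. Ccl25, the CCR9 ligand that guides gut lymphocytes, had 3.26, 5.80, 7.16 and 4.65 CPM in non-exercised tumours, against 8.92, 8.94, 8.14 and 8.28 CPM in their non-tumour livers, a log2 fold change of -0.71 ± 0.23 (adjusted p = 0.0218). Its tumours all lay below the non-tumour livers, but the call was lost without tumour 1 or 4 (adjusted p = 0.0967 and 0.0680) or without non-tumour library 1 or 2 (adjusted p = 0.0520 and 0.0527). In exercised mice Ccl25 differed by -0.42 ± 0.23 (adjusted p = 0.168).

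Ccl24, an eosinophil attractant made by macrophages, had 0.302, 0.171, 0.651 and 0.369 CPM in exercised tumours, against 1.52, 0.837, 1.31 and 2.06 CPM in exercised non-tumour livers, a log2 fold change of -1.90 ± 0.59 (adjusted p = 0.0187). The exercised groups did not overlap, and adjusted p was 0.0507 without tumour 1, 0.0587 without tumour 2 and 0.0571 without non-tumour library 4. In non-exercised mice it had 0.169, 0.308, 1.53 and 0.155 CPM in tumours and 0.785, 2.09, 1.39 and 0.774 CPM in non-tumour livers. There 3 tumours lay below all non-tumour livers and tumour 3 lay among them. The non-exercised difference was -1.17 ± 0.56 (adjusted p = 0.110), was -1.47 ± 0.50 and passed with each mouse compared with itself (adjusted p = 0.0452), and was -2.48 ± 0.53 without mouse 3 (adjusted p = 0.00190). Without tumour 3 alone it was -2.54 (adjusted p = 0.000687).

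Ccl22 had 1.09, 0.571, 0.701 and 0.316 CPM in exercised tumours and 0, 0.295, 0.151 and 0.271 CPM in exercised non-tumour livers, a log2 fold change of 1.81 ± 0.66 (adjusted p = 0.0394). The groups did not overlap, but with each mouse compared with itself the adjusted p was 0.0567, and it was 0.125, 0.0572 or 0.0606 without exercised tumour 1, 2 or 3 and 0.0952, 0.0878 or 0.0525 without exercised non-tumour library 1, 3 or 4. In non-exercised mice Ccl22 had 0.674, 0.462, 1.35 and 0.724 CPM in tumours and 0.673, 0.161, 1.39 and 0.678 CPM in non-tumour livers, which overlapped throughout.

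The paired fit, in which tumour and non-tumour pieces with the same mouse number were treated as 1 mouse, passed a few more genes. Ccl6 differed by -0.74 ± 0.25 in non-exercised (adjusted p = 0.0474) and by -0.76 ± 0.25 in exercised mice (adjusted p = 0.0441) in edgeR. By limma-voom, which took mouse as random, it passed in neither arm (adjusted p = 0.0705 and 0.0740). In every library Ccl6 had 4.27, 5.03, 21.2 and 8.84 CPM in non-exercised tumours and 13.1, 9.26, 20.4 and 13.8 CPM in their non-tumour livers. Exercised mice had 6.65, 8.45, 10.4 and 7.58 CPM in tumours and 16.3, 15.1, 11.8 and 12.7 CPM in non-tumour livers. The exercised tumours lay below all exercised non-tumour livers, and non-exercised mouse 3 was high in both pieces. In the unpaired fit of all groups Ccl6 passed in neither arm, at -0.52 (adjusted p = 0.321) without exercise and -0.75 (adjusted p = 0.154) with it. There the non-exercised difference was -1.23 without tumour 3 (adjusted p = 0.00495) and -0.99 ± 0.30 without both pieces of mouse 3 (adjusted p = 0.0180).

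Lists of genes around the chemokine system are read against the background of all genes called, 35.8% without exercise and 34.6% with it. The shares called were below these for the signalling, other-symbol and interferon lists in both arms. Grk3, which phosphorylates active receptors, rose by 2.10 ± 0.34 in non-exercised (adjusted p = 0.000268) and 2.81 ± 0.35 in exercised mice (adjusted p = 7.363e-05), among 3 and 5 increases and no decrease of 21 signalling genes. Of the 13 genes with other symbols, the cytokine Mif was lower in tumours of non-exercised mice, at -0.38 ± 0.12 (adjusted p = 0.0172), and Ackr3, a scavenging receptor for CXCL12, rose by 1.81 ± 0.47 in tumours of exercised mice (adjusted p = 0.00676). Of 14 NF-kappaB and cytokine genes, the non-exercised arm gave 7 increases and 1 decrease, and in exercised mice 7 rose with no decrease. The subunit Nfkb1 rose by 0.50 ± 0.09 (adjusted p = 0.000382) in non-exercised and 0.57 ± 0.09 (adjusted p = 0.000216) in exercised mice. Of 19 interferon response genes 4 rose and none fell in each arm, among them Oas1a by 1.23 ± 0.32 (adjusted p = 0.00594) in non-exercised and 1.14 ± 0.32 (adjusted p = 0.0115) in exercised mice. Among 8 proteases, the non-exercised arm gave 3 increases and 1 decrease and the exercised arm 2 increases and 1 decrease. The decrease was in both arms Dpp4, which cleaves several chemokines, at -0.67 ± 0.22 (adjusted p = 0.0223) in non-exercised and -0.74 ± 0.22 (adjusted p = 0.0140) in exercised mice.

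Cell type markers are read beside all genes tested. In non-exercised mice 35.8% of these were called, 18.0% higher and 17.8% lower, and in exercised mice 34.6%, 18.6% higher and 16% lower. Counting either direction, the shares called were near or below these for all marker lists but the cholangiocyte and hepatocyte ones. Kupffer cell markers gave 5 decreases and no increase of 13 in each arm, with a summed level of 207.9 to 861 CPM in non-exercised tumours, against 570.3 to 748 CPM in their non-tumour livers, and of 258 to 516 CPM in exercised tumours, against 626 to 749.6 CPM in exercised non-tumour livers. The lipid-associated macrophage list gave 5 increases of 14 in each arm, namely Cd9, Cd63, Fabp5, Lpl and Spp1, genes that other cells also express, and Spp1 is in the cholangiocyte list too. Its median log2 fold change was 0.24 in non-exercised and 0.83 in exercised mice. Its summed level was 825 to 2112 CPM in non-exercised tumours, against 137.8 to 379 CPM in their non-tumour livers. In exercised mice it was 462 to 2244 CPM in tumours, against 114 to 286 CPM in non-tumour livers. The cholangiocyte list, which shares Spp1, summed to 521 to 1687 CPM in non-exercised and 184.5 to 1758 CPM in exercised tumours. The part of Spp1 in these sums was not tested. The cholangiocyte list gave 4 increases and 1 decrease of 9 in non-exercised and 4 increases in exercised mice. Lcn2 was the single neutrophil marker to rise in each arm, and none of 12 T and NK cell markers passed in either. Dendritic cell markers gave 1 increase of 11 in the non-exercised arm and 2 in the exercised arm, and B and plasma cell markers gave 1 increase of 11 in each. Stellate cell and fibroblast markers gave 2 increases of 12 in each arm, and endothelial markers 3 and 4 increases of 12. Hepatocyte markers gave 3 increases and 4 decreases of 11 in each arm. The part of these cells in the chemokine results was not tested.

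The last comparison sets exercised against non-exercised high-fat mice. Its non-tumour part and the interaction used the same non-exercised non-tumour libraries as the diet comparison. An exercise difference there that is opposite in sign to a diet difference is therefore not independent of it. The tumour part shares its libraries with the tumour comparisons. No chemokine gene passed in either tissue under edgeR, DESeq2 or limma-voom, where 0.0139% of all genes passed in non-tumour liver and 0.0208% in tumours. At an unadjusted p under 0.05 edgeR gave 8 of the 30 genes in non-tumour liver and 3 in tumours. The share of all genes at that level is not given, here or for the interaction, so these counts carry no result about the members. In non-tumour liver 23 of 30 log2 fold changes were below 0 and their median was -0.40, beside -0.01 over all genes. In tumours 24 of 30 were below 0 and their median was -0.36, beside 0.01 over all genes. The share of all genes below 0 is not given. Neither these counts nor these medians are given without non-exercised mouse 3, which is in both tissues, so they carry no result about exercise. No member passed the interaction of exercise and tumour either, and none of the 14428 genes did in edgeR. There 1 member, Cxcl13, had an unadjusted p under 0.05, and DESeq2 and limma-voom also called 0 members. After Cxcl13 the next smallest p-values in the interaction were those of Ccl22 at 1.67 ± 0.85 and Cxcl1 at -1.30 ± 0.80, both at an adjusted p of 1.

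In non-tumour liver the smallest p-values were those of Cxcl9, Ccl5 and Ccl22. Cxcl9 had 9.90, 20.8, 5.04 and 9.42 CPM in exercised mice, against 36.1, 13.6, 51.2 and 23.4 CPM in non-exercised mice, a log2 difference of -1.46 with a 95% interval of -2.43 to -0.48 (adjusted p = 0.330). Ccl5 had 1.15, 1.62, 0.756 and 1.30 CPM in exercised mice and 3.08, 1.82, 8.74 and 3.19 CPM in non-exercised mice, a difference of -1.80 with an interval of -3.03 to -0.56 (adjusted p = 0.345). Every exercised library lay below every non-exercised library for Ccl5, and the ranges overlapped for Cxcl9. Ccl22 differed by -1.95 with an interval of -3.33 to -0.57 (adjusted p = 0.353), at 0, 0.295, 0.151 and 0.271 CPM in exercised mice and 0.673, 0.161, 1.39 and 0.678 CPM in non-exercised mice. The intervals leave out 0 for single genes, but with adjustment over all genes tested none of these differences passed.

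Of the genes described, Ccl5 and Cxcl10 had the smallest p in tumours. Ccl5 had 1.33, 2.91, 1.55 and 0.474 CPM in exercised tumours and 1.91, 1.54, 8.55 and 3.0 CPM in non-exercised tumours, a log2 difference of -1.27 (interval -2.48 to -0.05, adjusted p = 0.553). Cxcl10 had 4.35, 13.6, 4.00 and 5.74 CPM in exercised tumours and 7.81, 15.4, 16.4 and 9.25 CPM in non-exercised tumours, a difference of -0.82 (interval -1.65 to 0.01, adjusted p = 0.573). The ranges overlapped for both genes, and for Ccl5 non-exercised tumour 3 lay far above the other tumours.

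Without both pieces of non-exercised mouse 3, the non-tumour differences were -1.10 for Cxcl9, -1.15 for Ccl5 and -1.42 for Ccl22, and the tumour differences were -0.47 for Ccl5 and -0.66 for Cxcl10. None passed with or without the mouse. T and NK cell markers had a median log2 difference of -1.08 in non-tumour liver and -0.70 in tumours, and dendritic cell markers one of -0.95 and -0.36. Lipid-associated macrophage markers had a median of -0.81 and -0.23, and no marker or pathway gene of any list passed in edgeR in either tissue. The summed T and NK cell markers were 7.76 to 12.2 CPM in exercised non-tumour livers, against 8.19 to 35.7 CPM in non-exercised ones, and 8.01 to 13.9 CPM in exercised tumours, against 6.67 to 35.1 CPM in non-exercised ones.

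Other genes did not pass the exercise test either, among them Ccr7 with only 6 to 38 counts in a library. Ccr2 had 2.80, 5.71, 6.55 and 3.68 CPM in exercised non-tumour livers and 9.48, 4.23, 17.3 and 10.7 CPM in non-exercised ones, a difference of -1.15 with an interval of -2.01 to -0.29 (adjusted p = 0.404). In tumours it had 8.95, 5.60, 8.91 and 3.37 CPM in exercised and 7.87, 7.34, 19.3 and 11.9 CPM in non-exercised mice, and the groups overlapped. Ccr7 had 0.486, 1.03, 0.454 and 0.866 CPM in exercised non-tumour livers, against 0.673, 0.749, 1.59 and 0.774 CPM in non-exercised ones, with overlap. Its tumours had 1.88, 0.685, 0.451 and 0.527 CPM in exercised mice and 0.337, 0.872, 1.77 and 1.65 CPM in non-exercised mice, which overlapped throughout. Cxcl9 in tumours had 20.6, 32.8, 14.1 and 19.3 CPM in exercised mice and 37.0, 17.9, 64.5 and 27.3 CPM in non-exercised mice, a difference of -0.76 (adjusted p = 0.657). Cxcl13 ran the other way in non-tumour liver, with 2.92, 0.591, 2.07 and 4.12 CPM in exercised and 0.280, 0.535, 0.695 and 0.290 CPM in non-exercised mice, at a difference of 2.39 with an interval of 0.03 to 4.76 (adjusted p = 0.591).

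Of the 22 symbols under the minimum, the largest counts in any library were 31 for Ccl21a, a lymphoid homing ligand with near-identical copies, and 27 for Cxcl17. Ccl8 reached 22 counts, Ccr9, the Ccl25 receptor, reached 21 and Ccl19 reached 13. Ccl17, the second CCR4 ligand, reached at most 7 counts, Ccl11 at most 4 and Ccr8 at most 1. Ccl21b, Ccl26 and Ccl27b had 0 counts in all 20 libraries. With so few counts, differences in these genes were not examined.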

How the data were processed

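Poly(A) RNA of frozen liver was sequenced with a stranded kit, per the labels' protocols. The authors deposited raw read counts per gene; per the submitters' processing notes reads were trimmed (Trim Galore 0.6.10), aligned to GRCm39 (STAR 2.7.11a) and counted per gene (Subread 2.0.5), and per the file headers featureCounts counted exons with strand setting 2. From these counts edgeR 4.0.16 (R 4.3.3) was run over all 20 libraries and 5 groups: filterByExpr (minimum count 10, minimum total 15; 14428 genes), TMM scaling, robust quasi-likelihood tests and Benjamini-Hochberg adjustment over all genes, with a threshold of 0.05. CPM are TMM-scaled; TPM use the exon lengths in the files. Single-gene intervals are 95%. The scripts were tested on simulated data.

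Counts cover all 30 members, of which 1 is not reported here. The members and gene lists were chosen with earlier results of these data known. Called members are given with values in every library for the 8 smallest p-values in a comparison, and likewise the 6 ligands and 4 receptors of highest mean TPM; genes named beyond this were chosen after their values were seen. Erythroid markers gave 4 increases of 5 with diet, beside 14% of all genes higher. They gave 1 decrease in each tumour comparison, beside 17.8% of all genes lower in non-exercised and 16% in exercised mice.

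DESeq2 1.42.0 and limma 3.58.1 (voom, mouse as a random effect, correlation 0.177) were alternatives. Tumour and non-tumour pieces with the same number within an arm were read as the same mouse from the labels; their deviations from group means correlated with r of -0.0835 to 0.213 in non-exercised and 0.0754 to 0.441 in exercised mice. Nothing in the labels says how tumours were chosen. The p-values of the main fit measure the spread between libraries, with tumour and non-tumour pieces of a mouse counted as independent.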

Additional observations from a re-analysis of the deposited data

Results flagged for a closer look

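Within groups of 4 libraries, a library was marked when its gap to the nearest other library, as a share of the group's range, exceeded Dixon's 95% critical value. Chance alone marks about 5% of groups, and 90 groups were looked at. In normal-diet liver, library 2 had 10.0 CPM of Cxcl1, where the other 3 had 1.57 to 2.35 CPM, and 10.99 CPM of Cxcl13, where the others had 1.92 to 2.10 CPM. Normal-diet library 4 had 0.0636 CPM of Ccl7, where the others had 0.0573 to 0.0583 CPM, which is 1 count in each. In non-exercised mice, tumour 3 had 1.53 CPM of Ccl24, where the other tumours had 0.155 to 0.308 CPM, and 5.53 CPM of Cxcl11, where the others had 10.5 to 11.2 CPM. Exercised non-tumour library 2 had 1.97 CPM of Ccl4, where the others had 0.122 to 0.252 CPM. Exercised tumour 2 had 0.857 CPM of Ccl7, where the others had 0.211 to 0.250 CPM.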

How the results depend on the processing

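With the high-fat diet, 13 members were called; with 1 library left out the count ran from 8 to 14, the 8 being without non-exercised non-tumour library 3, and it was 15 by DESeq2, 10 by limma-voom, 9 without a filter, 10 with a 1 CPM filter and 12 with the replicate number as a block. The 6 tumour calls in non-exercised mice became 4 to 9 with 1 library left out and 9 with the mouse as a block. The 6 tumour calls in exercised mice became 2 to 8 with 1 library left out, being 3 without non-tumour library 3 or 4 and 2 without tumour 1 or 2, and 8 with the mouse as a block. Exercise and interaction counts were 0 under every alternative, the block included. The pairing of tumour with non-tumour pieces changed no call of a reported gene other than those named in the report. Numbers shared between diet groups or between exercise arms pair no mice; that block ended the diet call of Cxcl16 (adjusted p = 0.0551). Without both pieces of non-exercised mouse 3, an alternative chosen after seeing the data, 11 members were called with diet and 9 between tumour and non-tumour liver in non-exercised mice. Of 40 single-gene results, 23 kept their side of the threshold in all alternatives run, 11 were lost in at least 1, 6 passed only in some, and 0 reversed. The 23 include exercise and interaction results that were not called in the main fit and stayed so. All 11 that were lost were calls of the main fit, so the calls were less stable than the pooled count. With diet, Ccl2, Ccl7, Ccl22, Ccr2, Cxcl9, Cxcl10 and Cxcl11 were called in each alternative that tested them, Ccl7 and Ccl22 not being tested with the 1 CPM filter or with only the groups compared, as were Ccl9 and Cxcl11 in both tumour comparisons and Cxcl1 and Cxcl13 in that of non-exercised mice. Without a filter, the diet calls of Ccl4, Ccl5, Cxcl13 and Cxcl16 were lost (adjusted p = 0.0838, 0.0654, 0.0974 and 0.120), as were those of Cxcl12 in tumours of non-exercised and exercised mice (0.0741 and 0.0564). By limma-voom the diet calls of Ccl5, Cxcl13 and Cxcl16 were lost (adjusted p = 0.0515, 0.329 and 0.0738). With only the groups compared, exercised Cxcl12 was lost (adjusted p = 0.0569) and exercised Ccl6 passed (0.0150). The causes were not tested. In libraries where 1 CPM is as few as 16.5 counts, genes under that level such as Ccl7 and Ccl22 are measured with few reads.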
